A study of Homo sapiens with 12 samples.

Results

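Smooth muscle type contractile genes encode the actins, tropomyosins, myosin chains and actin-binding proteins that were first known from smooth muscle and that fibroblasts also use for tension and movement. The genes taken were ACTA2, ACTG2, TAGLN, CNN1, MYL9, TPM1, TPM2, MYH11, LMOD1 and MYOCD, picked by symbol from the raw count table. Of these, MYOCD encodes a transcriptional coactivator and no part of the filaments, and it is counted with the others. Each symbol had 1 row, so the set held 10 of the 57500 genes in the table, and all 10 were among the 16251 genes with enough counts to be tested. They were measured in 12 RNA sequencing libraries of MRC5, a human embryonic lung fibroblast line, in 4 groups of 3. Prol are proliferating cells, Sen(IR) are cells that entered senescence after an X-ray dose of 20 Gy, and the other groups are cells irradiated in this way and then kept in UK5099, written Sen(IR)+UK5099, or in CTPI2, written Sen(IR)+CTPI2. UK5099 inhibits the mitochondrial pyruvate carrier and CTPI2 the mitochondrial citrate carrier SLC25A1. The methods give 100 μM for UK5099 and 15 or 30 μM for CTPI2, added from the day after irradiation and kept in the medium for 12 days, and which CTPI2 concentration was sequenced is not given in the sources used here. All 4 groups come from a single cell line. The labels number the 3 libraries of each group without saying what separates them, and the study's legends call its RNA sequencing replicates independent experiments or independent conditions.

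In smooth muscle, thin filaments of actin and tropomyosin slide along thick filaments of myosin, and phosphorylation of the regulatory myosin light chain starts the movement. Many of these genes are switched on by serum response factor (SRF), which binds a DNA element called the CArG box together with myocardin (MYOCD) or its relatives, the myocardin-related transcription factors. Fibroblasts that activate the same genes in response to TGF-beta and tension are called myofibroblasts, and ACTA2, the alpha smooth muscle actin, is their usual marker.

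RefSeq promoter windows, from 250 bases before to 50 after a start site on GRCh38.p14, were at hand for 6 of the 10 genes, in 8 windows. TAGLN, MYL9, MYH11 and MYOCD had none. Windows were searched on both strands for the CArG box, for a CArG-like element in which a single inner letter is neither A nor T, and for CATTCC, the core of the MCAT element bound by TEAD factors. Of 35116 such windows, 1.29% held a CArG box, 6.94% a CArG-like element and 14.0% the MCAT core, and the windows of CNN1, TPM1 and TPM2 and the second window of ACTA2 held none of them. The bases before the start site are shown for the 3 genes whose windows had a match: ACTG2 and ACTA2, which were the members that fell most after irradiation, and LMOD1, which was not called in any comparison. Capitals mark CArG boxes in ACTG2 (chr2:73892758-73893007, plus strand), CArG-like elements and the MCAT core in ACTA2 (chr10:88952774-88953023, minus strand), and the MCAT core in LMOD1 (chr1:201946549-201946798, minus strand). The MCAT core reads GGAATG on the strand shown.
ACTG2: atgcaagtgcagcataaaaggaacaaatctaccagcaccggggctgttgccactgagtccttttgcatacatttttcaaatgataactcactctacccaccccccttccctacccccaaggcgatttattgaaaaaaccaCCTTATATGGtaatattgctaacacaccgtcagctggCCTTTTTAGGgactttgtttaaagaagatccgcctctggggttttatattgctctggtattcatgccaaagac
ACTA2: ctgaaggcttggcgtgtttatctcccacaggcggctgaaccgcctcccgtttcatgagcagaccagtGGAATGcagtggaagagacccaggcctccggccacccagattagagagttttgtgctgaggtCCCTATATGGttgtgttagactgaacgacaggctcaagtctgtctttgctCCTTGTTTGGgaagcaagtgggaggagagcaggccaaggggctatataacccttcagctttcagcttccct
LMOD1: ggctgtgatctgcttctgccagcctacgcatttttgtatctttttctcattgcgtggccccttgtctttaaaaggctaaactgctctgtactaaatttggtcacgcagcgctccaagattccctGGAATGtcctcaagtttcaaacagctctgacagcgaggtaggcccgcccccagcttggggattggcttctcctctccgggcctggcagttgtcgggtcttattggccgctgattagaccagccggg
The CArG boxes of ACTG2 lay 110 to 101 and 73 to 64 bases upstream of the start site. The CArG-like elements of ACTA2 lay 121 to 112 and 71 to 62 bases upstream, with the MCAT core at 183 to 178. In LMOD1 the MCAT core lay 126 to 121 bases upstream. A match is a run of letters in the window and was not tested for binding. Of the genes whose windows had no match, CNN1 and TPM1 also fell after irradiation and TPM2 was not called. A link between matches and changes in level was not tested.

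Library totals ran from 20597736 to 28245693 counts, and levels are given as counts per 1000000 of the TMM-scaled library total (CPM), on which 3 counts are worth 0.111 to 0.147. Differences are log2 fold changes from edgeR's quasi-likelihood test over all 12 libraries, with Benjamini-Hochberg adjustment over all genes tested. Calls needed an absolute log2 fold change over 0.5 as well as an adjusted p under 0.05. After irradiation, 7 of the 10 contractile genes fell and 0 rose, whereas 22.4% of all genes tested fell and 24.8% rose. With UK5099, 8 of 10 were lower than in Sen(IR) and 0 higher, against 12.1% of all genes lower and 8.76% higher. With CTPI2, 0 of 10 were called in either direction by edgeR, 0 by DESeq2 and 2 at an unadjusted p under 0.05, a limit that 7.27% of all genes tested passed. In that comparison 0.148% of all genes were called lower and 0.0185% higher. The median log2 fold change of the 10 genes was -1.62 after irradiation, -1.14 with UK5099 and -0.06 with CTPI2, beside medians over all genes tested of 0.01, 0.01 and 0.0032. Ranges over libraries were fully separate, with the first group lower, for 8 genes in Sen(IR) against Prol (35.5% of all genes tested), 9 in UK5099 against Sen(IR) (28.6%) and 4 in CTPI2 against Sen(IR) (8.3%). The comparisons with Sen(IR) share its 3 libraries. In bulk libraries, fewer cells expressing a gene and less RNA per cell cannot be told apart.

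**Figure D1:**
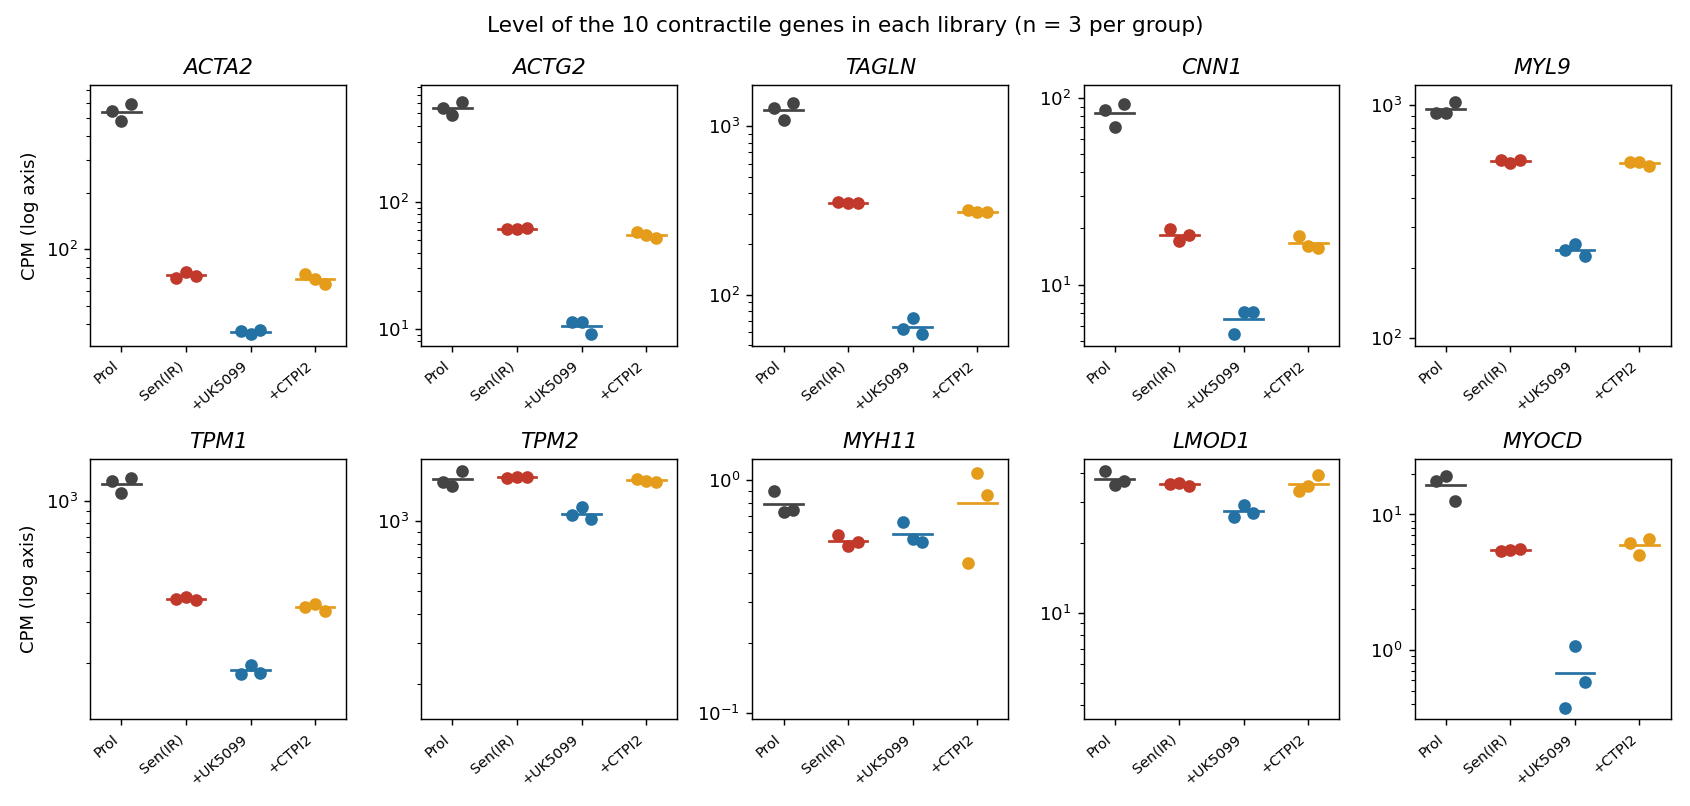
CPM of each of the 10 contractile genes on a log axis, with a point for each library, a bar at the group mean and groups of 3 libraries from left to right. For ACTG2 the Prol libraries sit between 484 and 617 CPM and the UK5099 libraries between 9.11 and 11.4, while TPM2, MYH11 and LMOD1 span a narrow range over all groups.

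The thin filament genes hold 2 actins and 2 tropomyosins. ACTA2 (ENSG00000107796, chr10:88935074-88991339, minus strand) measured 543, 480 and 591 CPM in the Prol libraries. In Sen(IR) it measured 70.4, 75.9 and 72.0 CPM. With UK5099 it measured 36.7, 35.3 and 37.3 CPM, and with CTPI2 73.6, 69.2 and 64.9. Every Prol library lay above every irradiated library, every UK5099 library lay below all others, and the CTPI2 libraries overlapped those of Sen(IR). ACTA2 was 7.39-fold lower in Sen(IR) than in Prol (log2 fold change -2.89, SE 0.0689, adjusted p = 1.34e-19). With UK5099 it was 2.00-fold lower again (log2 fold change -0.998, SE 0.0707, adjusted p = 1.02e-10). For CTPI2 the difference from Sen(IR) was -0.07 on the log2 scale, with a 95% interval from -0.21 to 0.07.

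ACTG2 (ENSG00000163017, chr2:73892314-73919865, plus strand) encodes gamma smooth muscle actin, the main actin of visceral smooth muscle. Its levels were 546, 484 and 617 CPM in Prol and 61.7, 60.9 and 62.5 CPM in Sen(IR). They were 11.4, 11.3 and 9.11 CPM with UK5099 and 58.5, 55.3 and 51.7 CPM with CTPI2. The 4 groups formed 4 separate ranges, in the order Prol, Sen(IR), CTPI2 and UK5099. ACTG2 had the largest fall of the 10 genes after irradiation, with a log2 fold change of -3.15 (SE 0.0793, adjusted p = 3.12e-19) that was the 172nd lowest of all genes tested. The log2 fold change with UK5099 was -2.54 (SE 0.0923, adjusted p = 8.13e-16), a 5.82-fold fall, and together the UK5099 libraries lay 51.8-fold below Prol. The CTPI2 difference of -0.16 missed the threshold (adjusted p = 0.698), and its 95% interval ran from -0.33 to 0.0028.

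Tropomyosin strands wind along the actin filament and control where myosin can bind. TPM1 (ENSG00000140416, chr15:63042620-63071915, plus strand) measured 1210, 1073 and 1249 CPM in Prol and 378, 386 and 373 CPM in Sen(IR). It measured 180, 197 and 182 CPM with UK5099 and 350, 358 and 334 CPM with CTPI2. These ranges were again separate, in the same order as for ACTG2. TPM1 was 3.11-fold lower in Sen(IR) than in Prol (log2 fold change -1.64, SE 0.0567, adjusted p = 7.51e-17) and 2.03-fold lower again with UK5099 (-1.02, SE 0.0567, adjusted p = 1.46e-12). With CTPI2 the log2 fold change was -0.13, with an unadjusted p of 0.0334 and an adjusted p of 0.620 from edgeR.

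TPM2 (ENSG00000198467, chr9:35681992-35690056, minus strand) encodes beta tropomyosin. It measured 1470, 1415 and 1647 CPM in Prol and 1535, 1544 and 1548 CPM in Sen(IR). It measured 1057, 1150 and 1023 CPM with UK5099 and 1523, 1493 and 1471 CPM with CTPI2. The Prol libraries lay on either side of those of Sen(IR), and the UK5099 libraries lay below all others. TPM2 differed between Sen(IR) and Prol by 0.03 on the log2 scale, with a 95% interval from -0.08 to 0.14. It was lower with UK5099 by a log2 fold change of -0.52 (SE 0.0549, adjusted p = 7.33e-08), close to the limit of 0.5. Without replicate 3 of Sen(IR)+UK5099 the value was -0.48, and with upper-quartile scaling -0.50, neither of which was called.

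**Figure D2:**
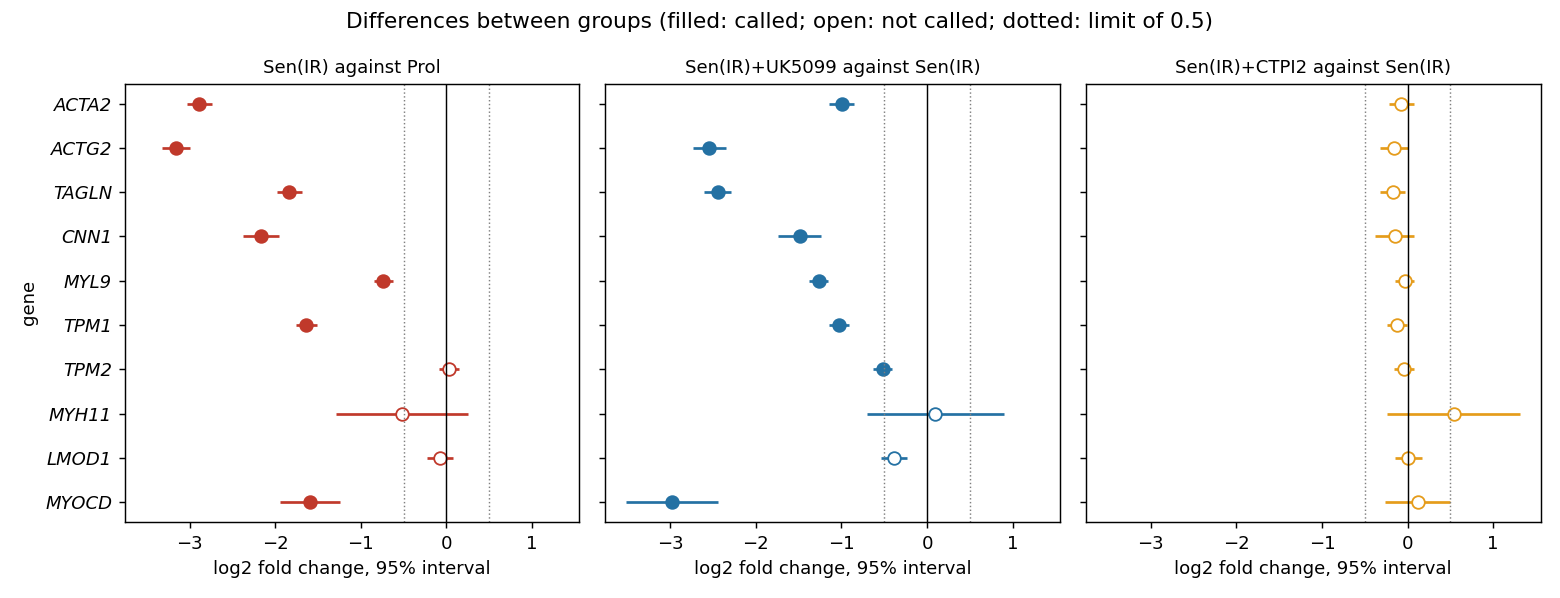
Log2 fold change of each contractile gene with its 95% interval in Sen(IR) against Prol, Sen(IR)+UK5099 against Sen(IR) and Sen(IR)+CTPI2 against Sen(IR), from left to right. Filled points were called, open points were not, and dotted lines mark the limit of 0.5. The differences reach -3.15 for ACTG2 in the left panel and -2.98 for MYOCD in the middle panel, and in the right panel all 10 are open.

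Of the motor genes, MYL9 fell and MYH11 was not called. MYL9 (ENSG00000101335, chr20:36541497-36551447, plus strand) encodes the regulatory light chain that smooth muscle myosin uses and that myosin light chain kinase phosphorylates. Its levels were 931, 924 and 1032 CPM in Prol, and 583, 566 and 580 CPM in Sen(IR). They were 240, 255 and 224 CPM with UK5099, and 573, 570 and 547 CPM with CTPI2. Prol lay above and UK5099 below the other groups, and CTPI2 overlapped Sen(IR). MYL9 fell after irradiation by a log2 fold change of -0.74 (SE 0.0536, adjusted p = 3.60e-11), the smallest of the 7 falls, and by -1.27 with UK5099 (SE 0.0547, adjusted p = 1.82e-14). Of the genes called lower in both comparisons, MYL9, TAGLN and MYOCD had a fall with UK5099 that was larger in value than that after irradiation. Whether the sizes differ was not tested.

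MYH11 (ENSG00000133392, chr16:15703135-15857028, minus strand) encodes the smooth muscle myosin heavy chain, the most restricted marker of mature smooth muscle in the set. It was near the floor of the measurement, with 10 to 26 counts in each library, or 0.439 to 1.07 CPM. The lowest and the highest level were both in the CTPI2 group. MYH11 was not called in any comparison. Its Sen(IR) libraries, with 11 to 13 counts, all lay below those of Prol, with 17 to 21. The 95% interval for Sen(IR) against Prol ran from -1.29 to 0.25 on the log2 scale, so a fall, no change or a small rise remain compatible with these counts.

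Of the actin-binding regulators, TAGLN and CNN1 fell and LMOD1 was not called. TAGLN (ENSG00000149591, chr11:117199370-117207464, plus strand) encodes transgelin, or SM22-alpha, which binds and crosslinks actin. It measured 1285, 1095 and 1366 CPM in Prol and 354, 348 and 348 CPM in Sen(IR). It measured 62.3, 72.5 and 58.2 CPM with UK5099 and 316, 307 and 308 CPM with CTPI2. No 2 groups overlapped. TAGLN was 3.57-fold lower in Sen(IR) than in Prol (log2 fold change -1.84, SE 0.0719, adjusted p = 6.24e-16) and 5.44-fold lower again with UK5099 (-2.44, SE 0.0760, adjusted p = 4.61e-17). With CTPI2 it had the largest downward value of the set, -0.17 on the log2 scale, with an unadjusted p of 0.0222, an adjusted p of 0.561 from edgeR and a 95% interval from -0.32 to -0.03.

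CNN1 (ENSG00000130176, chr19:11538767-11550323, plus strand) encodes calponin 1, which binds actin and inhibits the myosin ATPase. It measured 86.6, 69.8 and 92.7 CPM in Prol and 19.9, 17.1 and 18.5 CPM in Sen(IR). It measured 5.42, 7.12 and 7.17 CPM with UK5099 and 18.2, 16.1 and 15.8 CPM with CTPI2, where its libraries overlapped those of Sen(IR). Its log2 fold change was -2.17 after irradiation (SE 0.101, adjusted p = 1.31e-14) and -1.49 with UK5099 (SE 0.122, adjusted p = 1.21e-09).

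LMOD1 (ENSG00000163431, chr1:201896456-201946548, minus strand) encodes leiomodin 1, which starts new actin filaments in smooth muscle. It measured 40.8, 35.2 and 36.7 CPM in Prol, 35.8, 36.1 and 34.97 in Sen(IR), 25.8, 29.0 and 26.9 with UK5099, and 33.4, 35.2 and 39.0 with CTPI2. Only the UK5099 libraries lay apart from the rest. The log2 fold change of Sen(IR) against Prol was -0.08, with a 95% interval from -0.23 to 0.08. With UK5099 it was -0.39 (SE 0.0751, adjusted p = 2.16e-04), past the limit on p and short of the limit on fold.

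MYOCD (ENSG00000141052, chr17:12665890-12768949, plus strand), the SRF coactivator, had the largest fall of the set with UK5099. Its levels were 17.8, 19.3 and 12.6 CPM in Prol and 5.38, 5.45 and 5.54 CPM in Sen(IR). With UK5099 they were 0.373, 1.08 and 0.581 CPM, from 9 to 29 counts, and with CTPI2 6.18, 4.99 and 6.62 CPM. The UK5099 libraries lay below every other library, and those of CTPI2 lay on either side of Sen(IR). The log2 fold change was -1.60 in Sen(IR) against Prol (SE 0.167, adjusted p = 1.74e-08) and -2.98 in UK5099 against Sen(IR) (SE 0.259, adjusted p = 3.01e-09), a 7.89-fold fall that was the 213th lowest of all genes tested. With CTPI2 it was 0.12, with a 95% interval from -0.26 to 0.50.

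The inhibitors were also compared directly, at the concentrations above, which differ. Against CTPI2, 7 of the 10 genes were lower with UK5099 and 0 higher, with 11.7% of all genes tested lower and 8.2% higher. The log2 fold change was -3.10 for MYOCD (SE 0.253), -2.38 for ACTG2 (SE 0.0923), -2.27 for TAGLN (SE 0.0756) and -0.93 for ACTA2 (SE 0.0705). For TPM2 it was -0.47 and for LMOD1 -0.40, both short of the limit on fold. UK5099-treated cells were also set against Prol, where 7 genes were lower and 0 higher, beside 26.2% and 26.9% of all genes tested. CTPI2-treated cells against Prol likewise gave 7 lower and 0 higher, beside 21.9% and 24.8% of all genes. Against Prol the log2 fold change of MYOCD was -4.58 with UK5099 and -1.48 with CTPI2, and that of TAGLN was -4.28 and -2.01.

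Divided by exon length, the level of the genes could be ordered within each group, in CPM per kilobase of the exons of all annotated isoforms. In Prol the order was TPM2 at 474 ± 38.1 (SD, n = 3), MYL9 at 343 ± 21.6, TAGLN at 191 ± 21.2, ACTG2 at 144 ± 17.4, ACTA2 at 95.6 ± 9.93, TPM1 at 80.1 ± 6.27, CNN1 at 29.3 ± 4.17, LMOD1 at 9.57 ± 0.737, MYOCD at 1.87 ± 0.395 and MYH11 at 0.0445 ± 0.0052. No neighbours in this order overlapped between libraries. With UK5099, ACTA2 had dropped to 6.47 ± 0.181 CPM per kilobase, where its libraries overlapped those of LMOD1 at 6.94 ± 0.420. ACTG2 at 2.78 ± 0.340 likewise overlapped CNN1 at 2.32 ± 0.351. TPM2 stayed in first place and MYH11 in last place in all 4 groups. As a share of all counts, the 10 genes held 0.587 ± 0.0481% in Prol, 0.301 ± 0.0013% in Sen(IR), 0.173 ± 0.0094% with UK5099 and 0.291 ± 0.0065% with CTPI2 (SD, n = 3).

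Shares within a gene family do not depend on how libraries are scaled. Among the 6 actin genes, with counts divided by exon length, ACTA2 held 2.64 ± 0.127% in Prol, 0.852 ± 0.0275% in Sen(IR), 0.478 ± 0.0342% with UK5099 and 0.824 ± 0.0264% with CTPI2 (SD, n = 3). ACTG2 held 3.97 ± 0.233%, 1.07 ± 0.0301%, 0.204 ± 0.0191% and 0.969 ± 0.0278% in the same order. Per length, ACTG2 was thus the larger smooth muscle actin in Prol and ACTA2 the larger with UK5099. The order in Prol rests on the exon lengths used. In CPM without that division the Prol libraries overlapped, at 480 to 591 for ACTA2 and 484 to 617 for ACTG2. The cytoplasmic beta actin ACTB held 55.8 to 58.0% in the group means, the skeletal actin ACTA1 had 0 counts in every library, and the cardiac actin ACTC1 had 1 to 9. Among the 4 tropomyosin genes, TPM1 and TPM2 together held 62.5 ± 0.982% in Prol, 78.7 ± 0.0877% in Sen(IR), 76.8 ± 0.811% with UK5099 and 77.7 ± 0.504% with CTPI2. TPM2 alone went from 53.5 to 74.7% between Prol and Sen(IR), TPM1 from 9.03 to 3.97%, and the non-muscle TPM4 from 31.1 to 15.7%. These shares also rest on the exon lengths used, 3183 bases for TPM2 and 12375 for TPM4. In CPM without that division TPM4 was above TPM2 in Prol, at 3405 against 1510. In Sen(IR) TPM4 was below TPM2, at 1259 against 1542. Of raw counts, TPM1 and TPM2 together held 38.6% in Prol and 51.5% in Sen(IR). A two-sided exact permutation test of 3 libraries against 3 can give no p under 0.1. For the shares per length of ACTA2 and of TPM1 with TPM2, it gave that p in 10 of the 12 comparisons (0.12 after Benjamini-Hochberg adjustment over the 12). It gave 0.3 for ACTA2 in CTPI2 against Sen(IR) and for the tropomyosins in UK5099 against CTPI2.

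**Figure D3:**
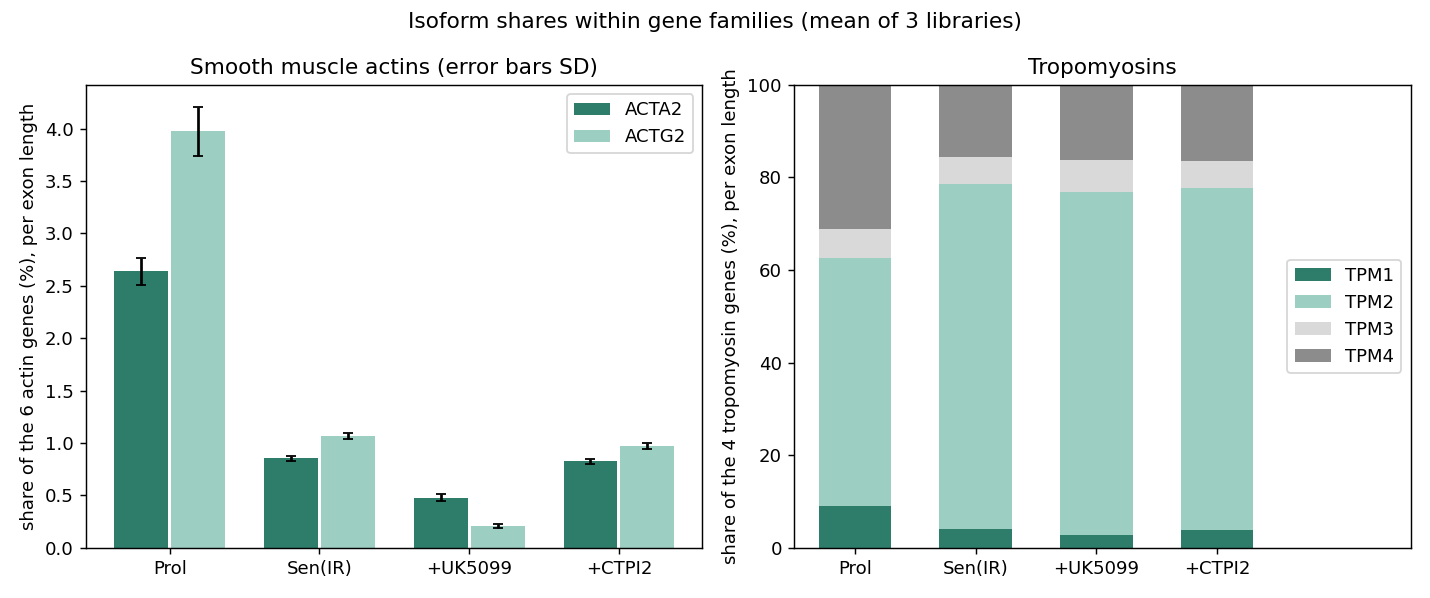
Left, share of ACTA2 and ACTG2 among the 6 actin genes in percent, as the mean of 3 libraries with SD as error bars. Right, stacked mean shares of the 4 tropomyosin genes in percent, which add up to the whole family. Counts were divided by exon length in both panels. Both actins are lowest with UK5099, at 0.478% and 0.204%, and TPM2 makes up 53.5% in Prol and 74.7% in Sen(IR), where TPM4 makes up 31.1% and 15.7%.

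Each contractile gene except LMOD1 and MYOCD was also set against a relative that non-muscle cells use, as the log2 ratio of their counts within a library. The ratio of ACTG2 to ACTG1 differed from that in Prol by -2.04 in Sen(IR) and -4.42 with UK5099, and that of CNN1 to CNN3 by -2.14 and -3.75. For ACTA2 over ACTB the differences were -1.65 and -2.52. For TAGLN over TAGLN2 the difference was -0.0084 in Sen(IR), where both genes fell, and -2.09 with UK5099. TPM1 over TPM4 differed by -0.20 in Sen(IR) and -0.77 with UK5099, and MYL9 over MYL12A by -0.68 and -1.53. TPM2 over TPM3 was higher than in Prol, by 0.66 in Sen(IR), 0.36 with UK5099 and 0.58 with CTPI2. MYH11 over MYH9, from few MYH11 counts, was higher by 0.12, 0.42 and 0.56 in the same order. These ratios show unequal change of the pair and were not tested.

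**Figure D4:**
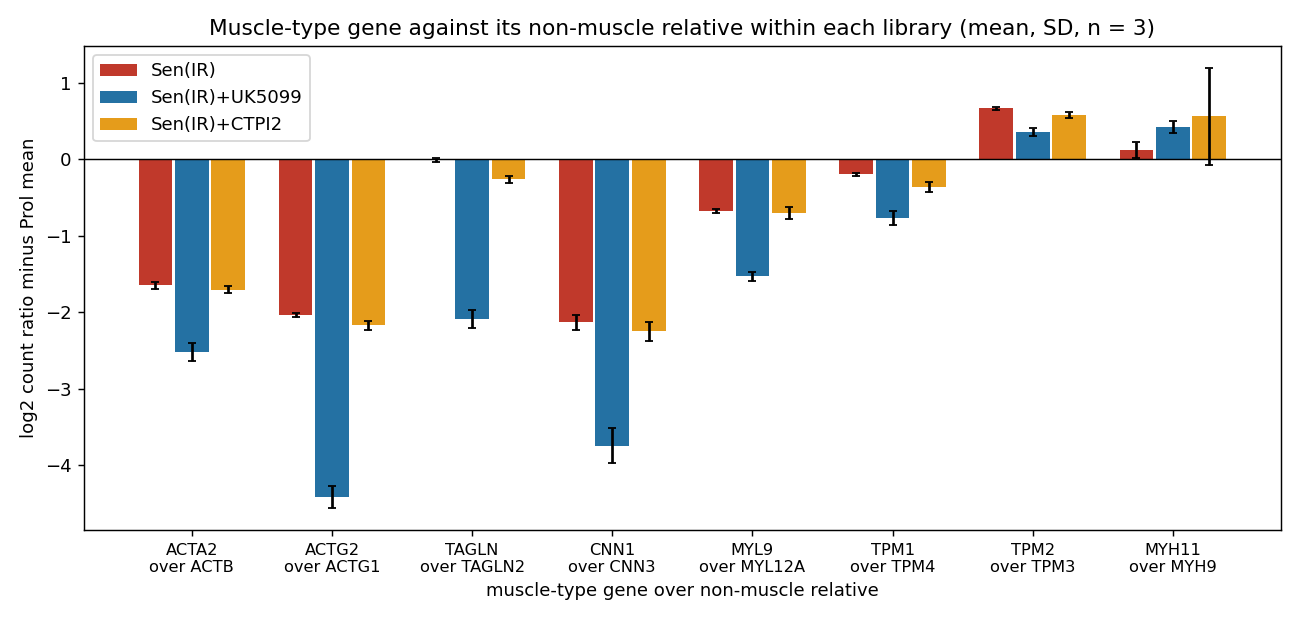
Log2 count ratio of 8 contractile genes to a non-muscle relative, minus the mean ratio in Prol, in the 3 irradiated groups. Bars are means of 3 libraries and error bars SD. The ratio to the relative is lowest with UK5099 for ACTG2, at -4.42, close to 0 in Sen(IR) for TAGLN, and above 0 for TPM2 and MYH11, the last with the widest error bar.

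Other genes of the contractile apparatus were taken as lists. After irradiation 22.4% of all genes tested fell and 24.8% rose, and with UK5099 12.1% fell and 8.76% rose. Of 20 genes of the non-muscle actin and myosin cytoskeleton, 14 fell after irradiation and 0 rose, with a median log2 fold change of -0.69. Those with the largest changes were TAGLN2 (-1.82, SE 0.0544), TPM4 (-1.44, SE 0.0471), ACTB (-1.24, SE 0.0563) and CNN2 (-1.20, SE 0.0509). With UK5099, 4 of the 20 fell, with a median of -0.21: CNN2 (-0.70), the focal adhesion protein ZYX (-0.67), vinculin or VCL (-0.60) and alpha-actinin or ACTN1 (-0.57). ACTB and ACTG1 were not called with UK5099, at -0.12 and -0.17.

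Of 37 genes for contraction signalling and accessory proteins, 30 were tested. After irradiation 14 fell and 6 rose, beside 22.4% and 24.8% of all genes tested, with a median of -0.47. The focal adhesion protein TGFB1I1 (-1.82, SE 0.0768) and the integrin ITGA8 (-1.74, SE 0.0878) fell, while PGM5 (2.29, SE 0.280), a protein of smooth muscle adhesion plaques, and the calcium release channel ITPR1 (1.67, SE 0.111) rose. With UK5099, 5 of the 30 fell and 2 rose, shares near the 12.1% and 8.76% of all genes tested, with a median of 0.05. TGFB1I1 (-1.02), SYNPO2 (-0.93) and smoothelin or SMTN (-0.75) fell, and the intermediate filament gene SYNM (0.67) rose. MYLK, the kinase that phosphorylates MYL9, was named after its values were seen, and it was not called in either comparison. Its level was 1127 ± 76.3 CPM in Prol, 949 ± 17.2 in Sen(IR) and 969 ± 53.5 in the UK5099 group (SD, n = 3).

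Of 28 regulators around SRF and myocardin, MYOCD included, 9 fell and 3 rose after irradiation, beside 22.4% and 24.8% of all genes tested. Their median was -0.19. TEAD4 (-2.15, SE 0.134) and SRF itself (-1.08, SE 0.0663) fell, and the kinase HIPK2 (0.87, SE 0.115) rose. SRF measured 77.8 ± 4.67 CPM in Prol, 36.9 ± 0.398 in Sen(IR), 30.2 ± 2.31 with UK5099 and 34.6 ± 1.69 with CTPI2 (SD, n = 3). With UK5099, 5 of the 28 fell and 2 rose, shares near the 12.1% and 8.76% of all genes tested, with a median of -0.16. Besides MYOCD, the factors GATA6 (-0.98, SE 0.183) and KLF5 (-0.84, SE 0.0975) fell and FOXO3 (0.85, SE 0.0619) rose.

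Of 25 genes that TGF-beta induces in myofibroblasts, 10 fell and 7 rose after irradiation, beside 22.4% and 24.8% of all genes tested. Their median was -0.34. Elastin (ELN) had 734 to 1139 counts in the Prol libraries and 3 to 6 in those of Sen(IR). IGFBP3 (-2.80, SE 0.0545), the matrix protein TNC (-2.69, SE 0.0629) and THBS1 (-1.41, SE 0.0486) also fell. With UK5099, 15 of the 25 fell and 1 rose, beside 12.1% and 8.76% of all genes tested, with a median of -1.06. POSTN, or periostin, went from 64.2 ± 2.35 CPM in Sen(IR) to 2.19 ± 0.567 with UK5099 (log2 fold change -4.88, SE 0.117), and TNC (-2.03), IGFBP3 (-1.91) and the collagen gene COL3A1 (-1.75) fell too. With CTPI2, 0 genes of the 4 lists were called by edgeR and 0 by DESeq2. An unadjusted p under 0.05 from edgeR was reached by 13 of the 25 TGF-beta induced genes, 4 of the 30 contraction genes, 2 of the 28 regulators and 0 of the 20 cytoskeletal genes, beside 7.27% of all genes tested. The log2 fold changes of the 25 TGF-beta induced genes ran from -0.35 to 0.85, with a median of -0.13.

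**Figure D5:**
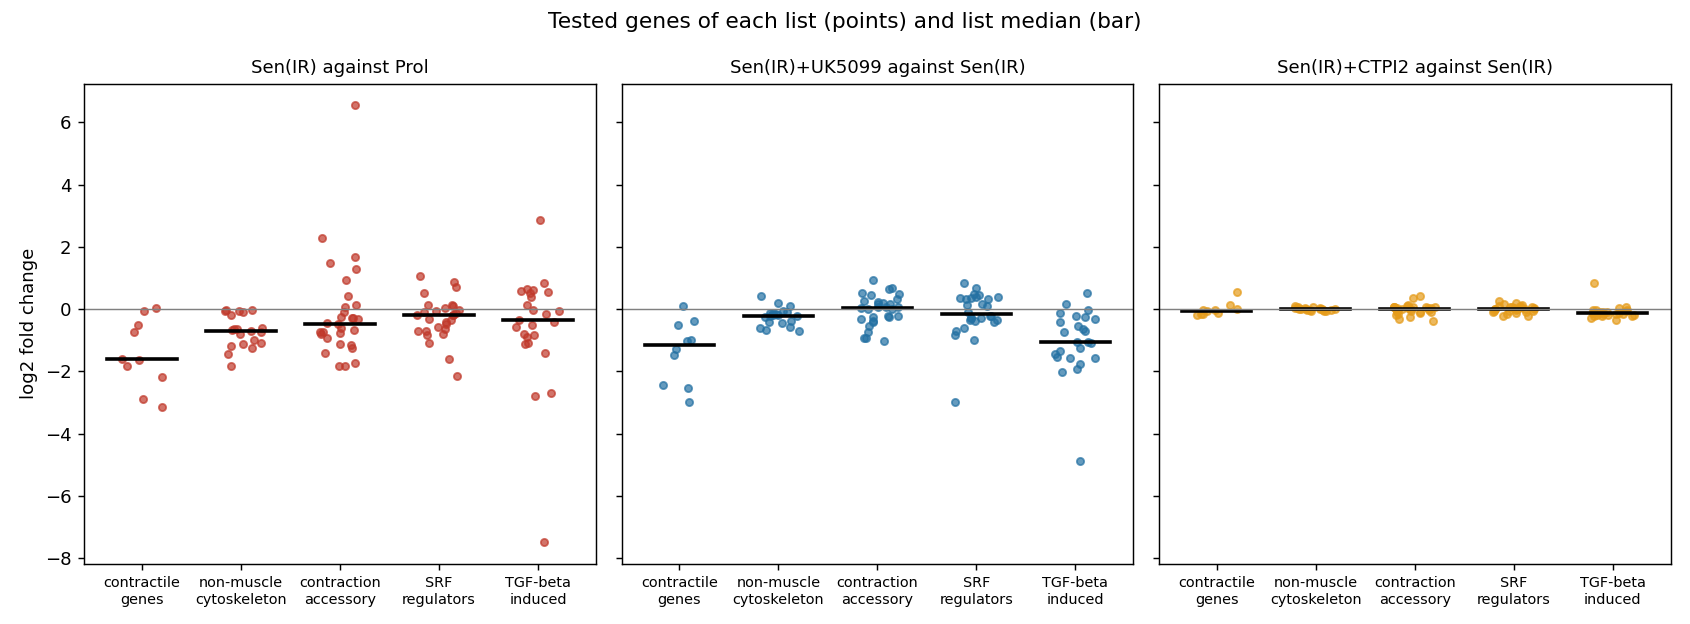
Log2 fold change of each tested gene of the contractile set and of the 4 related lists (points) with the list median (bar), in Sen(IR) against Prol, Sen(IR)+UK5099 against Sen(IR) and Sen(IR)+CTPI2 against Sen(IR). The median of the contractile genes is the lowest in the left panel, at -1.62, and in the middle panel, at -1.14, where that of the TGF-beta induced genes is -1.06. The highest point of the left panel is SORBS2, named after its values were seen, which had 0 counts in all Prol libraries, so its fitted value depends on the prior count and is no bound.

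The label was checked against cell type markers. All 11 fibroblast markers were detected, and their summed level was 21371 to 25409 CPM in Prol, 20697 to 21281 in Sen(IR), 10909 to 11401 in the UK5099 group and 18268 to 20056 in the CTPI2 group, so it was lower in the UK5099 libraries, along with the contractile genes. Of these 11 markers, 7 were called lower with UK5099, beside 12.1% of all genes tested. Among the 7, COL1A1, COL1A2 and COL3A1 are also in the TGF-beta list. These collagen genes and VIM gave most of the sum. The markers not called lower were DCN, LUM, PDGFRB and VIM. They measured 1363, 357, 156 and 3063 CPM in Sen(IR), and 1362, 370, 162 and 2780 CPM with UK5099. The 8 pericyte and smooth muscle markers were split. DES had 62 counts over all 12 libraries, KCNMB1 5, PLN 4 and CASQ2 7, so these were nearly absent. MCAM had 76581, NOTCH3 17108, CSPG4 14187 and RGS5 3342, so these were detected. The label smooth muscle type refers to the genes of the set, and that the cells are fibroblasts comes from the study's methods. The 8 pericyte and smooth muscle markers summed, mostly from MCAM, to 542 to 593 CPM in Prol, 307 to 317 in Sen(IR), 353 to 377 in the UK5099 group and 309 to 324 in the CTPI2 group. Skeletal and cardiac muscle markers each summed to at most 2.83 CPM in any library, with MYOG, MYF5, ACTA1 and MYL7 at 0 counts. The 6 epithelial markers summed to 60.3 to 72.7, 24.8 to 27.5, 16.4 to 17.9 and 23.2 to 26.04 CPM in the same order of groups. The 5 endothelial markers summed to 157 to 206, 356 to 367, 207 to 237 and 300.03 to 329.96 CPM. Nearly all of this came from TEK, with 74389 counts over all 12 libraries, beside 461 for KDR, 163 for VWF, 41 for PECAM1 and 6 for CDH5. The 5 immune markers summed to 0.902 to 6.85 CPM over all libraries. Mitochondrial genes held 2.78 to 3.21% of counts in Sen(IR) and 3.81 to 4.23% with UK5099. The part of these differences in the contractile results was not tested.

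Some exons are shared with other genes. In GENCODE v44, 36.2% of the exon bases of ACTA2 overlap other genes. These are ACTA2-AS1 and FAS on the opposite strand and ENSG00000286116, which was not among the genes counted, on the same strand. Of the exon bases of TAGLN, 47.8% overlap others. PCSK7 on the opposite strand covers 34.1% and ENSG00000280143 on the same strand 38.1%. For TPM1 the share was 22.7%, for LMOD1 13.7%, for MYOCD 7.93% and for MYH11 7.32%, and for ACTG2, CNN1, MYL9 and TPM2 it was 0. Whether counting used the strand is not given in the sources used here, so reads in these bases cannot be assigned with certainty. FAS went from 63.7 ± 0.281 CPM in Prol to 113 ± 1.19 in Sen(IR), the opposite direction to ACTA2. PCSK7 was at 43.2 ± 3.25 CPM in Prol, 42.3 ± 1.44 in Sen(IR) and 27.4 ± 1.31 with UK5099, where TAGLN was at 1249 ± 139, 350 ± 3.45 and 64.3 ± 7.37 CPM. NDE1, which shares exon bases with MYH11, was at 39.1 ± 1.22 CPM in Prol and 13.9 ± 0.197 in Sen(IR).

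The genes whose log2 CPM over the 12 libraries followed ACTA2 most closely, among 9791 genes with a mean log2 CPM above 3, were KPNA2, CCNB1, LMNB1, FST and MORF4L2, each with a Pearson correlation of 0.999. The libraries fall into groups, so such a value mostly describes the group means and is given as a description. CCNB1, the mitotic cyclin B1, measured 247 CPM in Prol, 25.4 in Sen(IR), 11.9 with UK5099 and 26.3 with CTPI2. LMNB1, a nuclear lamina gene, measured 169, 8.24, 2.51 and 7.45 CPM, and FST, the activin antagonist follistatin, 1507, 86.0, 33.8 and 76.3 CPM in the same order.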

How the data were processed

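RNA from 12 libraries of MRC5 fibroblasts, in 4 groups of 3 taken from the sample titles, was sequenced in paired ends. Per the submitters' processing notes and the methods, the authors used Trimmomatic 0.36 for trimming, STAR 2.5.2b for alignment to GRCh38 and featureCounts (Subread 1.5.2) for exon counts per gene, and they deposited a table of raw counts without normalization. No column belonged to another series. Tests were run with edgeR 4.0.16 in R 4.3.3 (filterByExpr, TMM, glmQLFit and glmQLFTest, without a replicate term) and, as an alternative, DESeq2 1.42.0. Each SE was derived from the log2 fold change and its F statistic. Exon lengths and overlaps came from GENCODE v44. The fit was tested on simulated data with known changes. The chi-square per gene between libraries of a group was 2.28 to 13.4, so none was a copy of another library. Such values cannot tell whether libraries share a culture or an RNA sample.

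The member genes and the lists were chosen with earlier results of these data known, and the ratios to non-muscle relatives after their values were seen. Named genes are all members, up to 4 called genes of each list with the largest absolute log2 fold change and a mean log2 CPM above 1 (for ELN, counts are given), the 5 genes most like ACTA2 (mean log2 CPM above 3), genes with exons overlapping a member, and the other actins and tropomyosins. Correlations used log2(CPM + 0.5). Protein sequences were not used here. Alternatives were RLE and upper-quartile scaling, no filter, only the compared groups, a replicate block, an unadjusted p, a fold limit of 1, shares of raw counts, and leaving out each library.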

Additional observations from a re-analysis of the deposited data

How the results depend on the processing

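The counts of contractile genes called stayed within 1.5 times their values under every alternative run. Leaving out 1 library at a time gave 7 lower genes in Sen(IR) against Prol, 7 to 8 in UK5099 against Sen(IR), 0 in CTPI2 against Sen(IR), 7 to 8 in UK5099 against CTPI2, 7 to 9 in UK5099 against Prol and 7 in CTPI2 against Prol. Of 1200 gene values under alternatives, 1175 kept their direction and side of the threshold. Libraries with the same number correlated in their deviations from the group means by -0.17 to 0.12, over 0.1 in 3 of 18 pairs. Those with different numbers correlated by -0.16 to 0.30, over 0.1 in 3 of 36 pairs. With 3 libraries per group, such values cannot settle whether a shared number marks a shared experiment. A fit with the replicate block gave the same counts (7, 8 and 0 lower in the first 3 comparisons), with -3.15 for ACTG2 in Sen(IR) against Prol and -2.98 for MYOCD in UK5099 against Sen(IR).

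All changes of sign were in differences near 0 that were not called. Upper-quartile scaling, which moved the median of all genes by 0.12 in Sen(IR) against Prol, 0.14 in UK5099 against Prol and 0.11 in CTPI2 against Prol, gave LMOD1 0.04 in Sen(IR) against Prol and, in CTPI2 against Prol, 0.04 for LMOD1 and 0.10 for TPM2. TPM2 was -0.01 in Sen(IR) against Prol without Prol replicate 2, and 0.05 in CTPI2 against Prol without Prol replicate 3. LMOD1 in CTPI2 against Sen(IR) ranged from -0.05 (without Sen(IR)+CTPI2 replicate 3) to 0.06, with -0.0033 without Sen(IR) replicate 3. MYH11 in CTPI2 against Prol ranged from -0.27 to 0.30 without Sen(IR)+CTPI2 replicate 2 or 1, with -0.06 without replicate 3 and -0.04 and -0.03 without Prol replicates 2 and 3. Near the fold limit of 0.5, TPM2 in UK5099 against CTPI2 was called at -0.52 without Sen(IR)+UK5099 replicate 2, TPM2 in UK5099 against Prol at -0.51 to -0.54 without Prol replicates 1 or 2 or Sen(IR)+UK5099 replicate 2, and LMOD1 there at -0.51 without Prol replicate 2 or Sen(IR)+UK5099 replicate 2. A fold limit of 1 dropped MYL9 in Sen(IR) against Prol, MYL9 in CTPI2 against Prol, ACTA2 and TPM2 in UK5099 against Sen(IR), and ACTA2 and TPM1 in UK5099 against CTPI2. Raw counts without division by exon length gave ACTA2 3.47%, 1.12%, 0.630% and 1.09% of the actins and TPM1 with TPM2 38.6%, 51.5%, 47.5% and 49.8% of the tropomyosins in Prol, Sen(IR), UK5099 and CTPI2, and the same order of groups. Depth limits MYH11, with 10 to 26 counts per library, and MYOCD with UK5099.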
